A study of Mus musculus with 4 samples.

Results

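Open chromatin at gene ends was described in nuclei of the floating adipocyte layer of the mouse thymus, as 15510 fixed bins of 1 kb out of 37279 autosomal bins with the same minimum of fragments. A bin was chosen by its pooled count: at least 20 fragments with their midpoint in the bin, summed over all labelled nuclei on chromosomes 1 to 19 of mm10. Its centre also had to lie within 1 kb of either end of a gene in the RefSeq table of GRCm38.p6, the assembly that mm10 corresponds to. The other 21769 bins with 20 or more fragments lay beyond 1 kb of every gene end. The pooled count is therefore the selecting value, and the counts per label below add up to it.

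The fragments came from 1 multiome library, in which RNA and accessible DNA are read from the same nuclei. It was made from 16 pooled thymi of 6-month naïve wild-type female C57/BL6 mice on standard chow. Capsules were freed of attached fat, digested with collagenase and DNase, and spun to collect the buoyant layer. The authors' labels divide 317 nuclei with complete rows into thyAD I (146 nuclei), thyAD II (140) and Immune (31). Their clusters, numbered from joint RNA and chromatin neighbours at resolution 0.8, divide thyAD I into cluster 1 (85 nuclei) and cluster 3 (61), and thyAD II into cluster 0 (89) and cluster 4 (51). Cluster 2 is the Immune label. With 1 library and pooled animals there is no replicate: no test was made, and each interval below is a 95% exact binomial interval of counting error only. The labels were drawn in part from the same accessibility data, so a difference between labels describes the labelling and does not test it. Several thymus cell types can share a buoyant layer, and fewer cells of a type cannot be told apart from less signal per cell within a label that mixes them.

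Transposase inserts where DNA is free of nucleosomes, and the starts of active genes are the best-known such places. Promoters rich in CG dinucleotides are open in most cell types, whereas distal elements carry more of the difference between cell types. White adipocytes store triglyceride in a lipid droplet coated by perilipins, and thermogenic adipocytes also burn fatty acids through Ucp1, the uncoupling protein of the inner mitochondrial membrane. The adult thymus is mostly made of developing T cells, so T cell gene starts are the natural foreign signal in a fat fraction.

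The sequences upstream of the members that differed most between labels are shown first, since they differ in base composition and in motif content. They are the first 3 bins higher in thyAD II (Flvcr2, Vgll3, Dtx3l), the first 3 lower (Elovl6, Gm46840, Aox1) and the first 2 higher in Immune (Itpkb, Mboat2). Each bin's centre had to lie within 1 kb of a gene start with a RefSeq promoter entry, so named bins at far ends or at genes without an entry were passed over. Each run is the 250 bases before the gene start, 5′ to 3′ on the gene's strand, from RefSeq on GRCm38.p6. Capitals mark matches on either strand to any of 15 searched motifs.
Flvcr2: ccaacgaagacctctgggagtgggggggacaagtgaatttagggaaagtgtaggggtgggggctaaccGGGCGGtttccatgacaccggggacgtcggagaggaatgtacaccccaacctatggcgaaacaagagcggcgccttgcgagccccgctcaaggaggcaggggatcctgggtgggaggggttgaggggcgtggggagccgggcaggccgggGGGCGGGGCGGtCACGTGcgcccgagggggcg
Vgll3: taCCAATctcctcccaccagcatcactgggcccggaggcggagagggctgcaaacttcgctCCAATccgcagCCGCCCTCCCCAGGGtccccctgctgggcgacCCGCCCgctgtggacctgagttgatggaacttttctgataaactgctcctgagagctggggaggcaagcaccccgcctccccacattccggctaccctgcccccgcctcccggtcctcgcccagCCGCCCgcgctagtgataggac
Dtx3l: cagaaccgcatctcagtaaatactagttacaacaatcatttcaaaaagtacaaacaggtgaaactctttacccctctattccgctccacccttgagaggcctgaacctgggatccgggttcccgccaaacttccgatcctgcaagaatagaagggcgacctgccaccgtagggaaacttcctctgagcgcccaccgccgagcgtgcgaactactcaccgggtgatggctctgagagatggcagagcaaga
Elovl6: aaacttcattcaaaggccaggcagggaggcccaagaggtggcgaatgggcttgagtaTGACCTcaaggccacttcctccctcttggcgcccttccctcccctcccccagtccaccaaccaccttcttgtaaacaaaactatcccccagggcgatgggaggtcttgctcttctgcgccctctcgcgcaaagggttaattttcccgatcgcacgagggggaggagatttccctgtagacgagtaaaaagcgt
Gm46840: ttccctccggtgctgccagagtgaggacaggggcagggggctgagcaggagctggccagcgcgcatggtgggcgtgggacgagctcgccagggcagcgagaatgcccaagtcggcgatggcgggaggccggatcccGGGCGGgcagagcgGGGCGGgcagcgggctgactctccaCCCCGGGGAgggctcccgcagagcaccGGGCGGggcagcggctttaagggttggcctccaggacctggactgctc
Aox1: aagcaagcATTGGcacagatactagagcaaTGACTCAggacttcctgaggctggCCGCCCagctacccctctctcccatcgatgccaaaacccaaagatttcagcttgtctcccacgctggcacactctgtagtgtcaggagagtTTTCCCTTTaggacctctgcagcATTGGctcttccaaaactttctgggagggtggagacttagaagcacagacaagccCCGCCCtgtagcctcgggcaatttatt
Itpkb: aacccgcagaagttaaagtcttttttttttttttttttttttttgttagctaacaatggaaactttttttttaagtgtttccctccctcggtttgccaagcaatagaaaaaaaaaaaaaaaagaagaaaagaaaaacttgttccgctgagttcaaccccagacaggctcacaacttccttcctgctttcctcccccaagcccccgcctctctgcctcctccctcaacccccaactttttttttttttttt
Mboat2: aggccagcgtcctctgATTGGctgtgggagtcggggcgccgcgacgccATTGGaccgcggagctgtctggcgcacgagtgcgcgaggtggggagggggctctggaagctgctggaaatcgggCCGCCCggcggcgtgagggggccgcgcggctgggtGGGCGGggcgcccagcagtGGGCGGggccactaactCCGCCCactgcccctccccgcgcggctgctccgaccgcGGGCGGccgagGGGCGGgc
The windows lie at chr12:85746289-85746538, chr16:65814939-65815188, chr16:35939028-35939277 on the minus strand, chr3:129532136-129532385, chr4:3230932-3231181, chr1:58029719-58029968, chr1:180330226-180330475 and chr12:24831349-24831598, all others on the plus strand. The Mboat2 run is 77.6% G and C, with 33 CG dinucleotides and 6 matches to the GC box GGGCGG. The Itpkb run is 38.4% G and C, with 4 CG dinucleotides, long runs of T and A, and no match to any motif. Flvcr2 holds 3 GC boxes and 1 E-box (CACGTG). Elovl6 holds 1 nuclear receptor half-site (AGGTCA), and Aox1 holds 2 GC boxes, 2 NFY letters (CCAAT), 1 AP-1 (TGANTCA) and 1 IRF (TTTCNNTTT) match with 5 CG dinucleotides. The Aox1 run ends before its bin begins, so its matches lie outside the bin, and the Vgll3 and Gm46840 runs begin before theirs. Dtx3l holds none.

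Over all 31365 RefSeq promoter windows (250 bases before to 50 after a start), the 10336 whose start lay in a member had a median of 62.3% G and C, and the 21029 others 49%. The observed over expected CG ratio was 0.807 at the median in members and 0.246 elsewhere. The GC box was found in 69.0% of windows in members and in 19.7% of the others. The ETS letters CCGGAAG were in 20.02% and 3.59%, the NRF1 letters GCGCATGC in 6.08% and 1.03%, and the CREB letters TGACG in 34.1% and 14.5%. The CCAAT letters hardly differed, at 38.3% and 36.8%. The TATA box (TATAAA) went the other way, at 5.91% and 17.4%, as did the GATA letters AGATAA, at 4.77% and 14.3%. Openness and composition moved together within the members too: the GC box share was 55.2% at 20 to 49 fragments, 67.3% at 50 to 99 and 79.8% at 100 or more. The AP-1 letters were in 4.07% and 9.71% of windows in and outside members, the C/EBP letters TTGCNNAA in 7.65% and 12.5%, the RUNX letters TGTGGT in 10.8% and 19.6%, the AGGTCA half-site in 11.3% and 18.7%, the IRF letters in 6.61% and 12.4%, the EBF letters (CCCNNGGGA) in 7.88% and 6.10%, and the ERR letters (TCAAGGTCA) in 0.223% and 0.514%. Short letters of high GC content match GC-rich windows more often by composition alone, and matches can overlap, so these shares describe the windows and not bound sites.

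Of the 15 motifs, the one whose share was furthest apart between the label directions was singled out after all the shares had been seen. The palindromic E-box CACGTG, the letters bound by the MYC, USF, SREBP, TFE and clock families, was in 32.6% of the 46 windows at members at least 2-fold lower in thyAD II. It was in 11.4% of the 8085 windows at all members compared and in 7.41% of the 54 windows at members at least 2-fold higher. The AGGTCA half-site was the next furthest apart, at 19.6%, 10.6% and 5.56% in the same order. Counted by bin, 10 of 33 members at log2 of −1 or less had the E-box, against 666 of 5192 between −0.5 and 0.5 and 4 of 42 at 1 or more. Between −1 and −0.5 the count was 68 of 565, so the higher share was in the most shifted bins and was not graded. Stretches of 30 bases around 8 of these E-boxes, each before the gene start, show the core in capitals with its flanks.
Atg3: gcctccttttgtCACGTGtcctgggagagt
Tuba8: ggtttgtatgcaCACGTGtgttgcggtcac
Rgs7: gcgtccctgtccCACGTGactgtcgcctcc
Mapkapk3: ttcctaatttgaCACGTGcctgggctgagg
Rpl13a: cgctccgaaaccCACGTGacatcccgcccc
Ogdh: gtcgcggcgtgtCACGTGgaccggtcgctc
Nubpl: gccaagggttgcCACGTGacgtcatttttc
Prkcd: ggacccccagctCACGTGggcggagcttcg
The 8 bins held 68 against 35 fragments in thyAD I and thyAD II (Atg3), 39 against 20 (Tuba8), 33 against 17 (Rgs7), 68 against 40 (Mapkapk3), 79 against 48 (Rpl13a), 33 against 21 (Ogdh), 25 against 16 (Nubpl) and 26 against 17 (Prkcd). The genes have unlike roles: Atg3 is an autophagy enzyme, Ogdh a subunit of a citric acid cycle dehydrogenase, Rpl13a a ribosomal protein and Prkcd a kinase.

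The median member held 58 pooled fragments (interquartile range 33 to 101, highest 1271) from 51 nuclei, and bins beyond 1 kb had a median of 32. Nuclei contributed 3610 to 55151 fragments each. Just inside the threshold were 390 members at exactly 20 fragments, such as Mgat4a (7 in thyAD I, 10 in thyAD II, 3 in Immune) and Gm29183 (7, 13, 0). Just outside were 401 gene-end bins at 19, such as Cops5 (8, 8, 3), Jph1 (3, 13, 3) and Gdap1 (8, 10, 1). In all, 88538 gene-end bins held at least 1 fragment. The gene table gives gene bounds only, so exons, introns and untranslated parts were not assigned.

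Gene starts made up most of the members. Of the 15510, 11385 (73.4%) had a gene start within 1 kb and 835 (5.38%) only a gene's far end. The other 3290 (21.2%) had no start among the genes with a strand in the sequence table and touched at least 1 gene without one. Starts on both strands, the arrangement of divergent gene pairs, were found at 18.7% of the start members. Protein-coding genes were touched by 86.4% of members. Of 16457 protein-coding genes with a strand, 50.6% had their start at a member and 6.59% their end. Of 9291 long non-coding RNA genes, 17.8% had their start at one. Start members had a median of 64 fragments and end-only members 32.

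**Figure D1:**
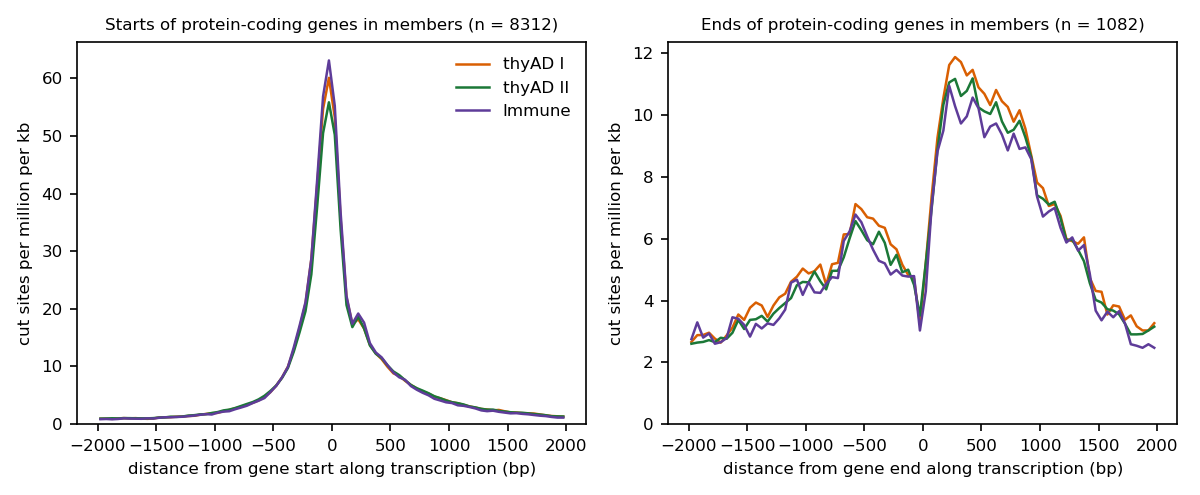
Transposase cut sites per kb, scaled to 1000000 cut sites of the label, in 50 bp steps, around 8312 starts (left) and 1082 ends (right) of protein-coding genes in members, by label. The start profile peaks just upstream of the gene in all 3 labels, whereas the end profile is lower, broader and has a dip at the end itself.

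The cut sites showed where in the bin the DNA was open. Around starts, the highest step was centred 25 bp upstream in all 3 labels, at 60.1 cut sites per kb per 1000000 cut sites of the label in thyAD I, 55.8 in thyAD II and 63.1 in Immune. These were 45.3, 41.7 and 51.8 times the level of the outer flanks. Around gene ends the highest step was 275 bp downstream in thyAD I, 425 bp in thyAD II and 225 bp in Immune, at 11.9, 11.2 and 10.9, or 3.68, 3.65 and 3.66 times the flanks. The members at these starts and ends were themselves chosen for their fragments, so the height of both profiles follows from the rule. The breadth and the position within the window follow from it in part, since a bin's centre had to lie within 1 kb. Starts of neighbouring genes near these ends were not separated out.

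Fragments at members were short. In thyAD I 76.1% of member fragments were under 150 bp, the size of DNA without a whole nucleosome, in thyAD II 73.9% and in Immune 76.7%. Bins beyond 1 kb were close to this, at 74.8%, 71.9% and 74.0%. Everywhere else in the genome the shares were 48.4%, 43.1% and 49.5%. The median member fragment was 71 bp in thyAD I, 73 bp in thyAD II and 68 bp in Immune. Members at an end only had 74.2%, 71.8% and 73.7% short fragments, so they were open DNA by this measure as well.

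Gene-end bins took like shares of each label. They held 27.4% of the fragments of thyAD I (27.3 to 27.4), 26.2% of thyAD II (26.2 to 26.3) and 26.9% of Immune (26.8 to 27.1). Bins beyond 1 kb held 22% of thyAD I and 21.2% of thyAD II but 15.0% of Immune. The minimum of 20 pooled fragments favours places open in the thyAD labels since Immune supplied 561387 of the 4397902 labelled fragments, and its part in the lower Immune share of distal bins was not tested. The barcodes without a label held the rest of the 101060606 fragments. They had 26.2% in members and 8.89% in bins beyond 1 kb.

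The clusters of 1 label differed as well. By the median over nuclei, a measure unlike the pooled shares above, thyAD I was at 28.8% and thyAD II at 26.6%. The median nucleus had 31.7% of its fragments in gene-end bins in cluster 3 and 27.4% in cluster 1, both thyAD I. In thyAD II it was 27.3% in cluster 0 and 24.9% in cluster 4, and in Immune 29.3%. The enrichment of insertions at gene starts that the authors deposited moved with it within each label, with medians of 7.92 in cluster 3 and 6.68 in cluster 1, 6.74 in cluster 0 and 6.29 in cluster 4, and 8.09 in Immune. So did depth, the other way: the median nucleus had 8414 fragments in cluster 3, 12369 in cluster 1, 14435 in cluster 0, 17339 in cluster 4 and 16036 in Immune. The part of depth and of nucleus quality in these shares was not tested. The median percent of mitochondrial UMIs was 3.51 to 5.59 in the thyAD clusters and 10.9 in Immune.

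**Figure D2:**
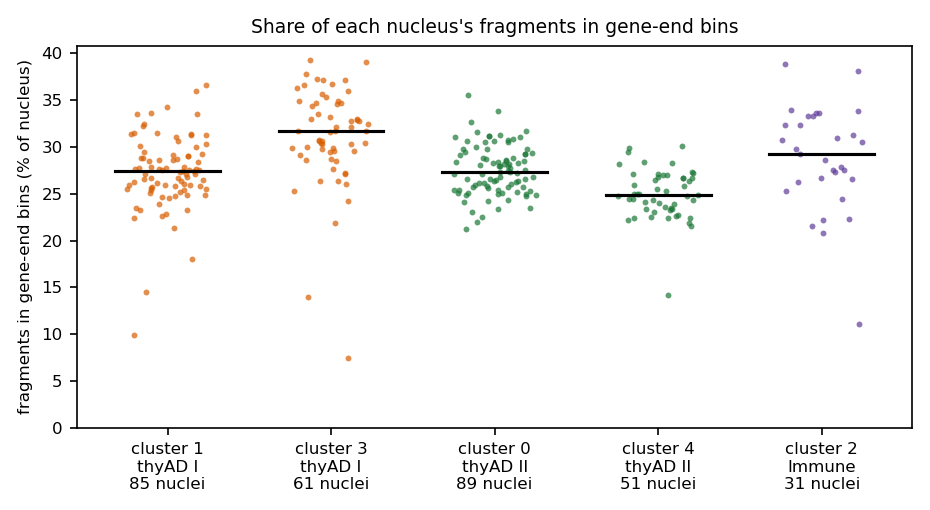
Percent of each nucleus's fragments in gene-end bins, 1 point a nucleus and a black line at the median, by cluster. The middle of cluster 3 lies above that of cluster 1, the middle of cluster 4 is the lowest at 24.9%, and 3 nuclei of cluster 1, 2 of cluster 3, 1 of cluster 4 and 1 of Immune fall below 20%.

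Between thyAD II and thyAD I the gene ends were nearly alike. Ratios were taken for bins with at least 40 fragments over both sides, as log2 of the ratio of FPM (fragments in the bin per 1000000 fragments of the group) with 0.5 fragments added to each side. Among 9625 such members the median log2 was −0.06, and 90% of them lay between −0.64 and 0.61. At least 2-fold higher in thyAD II were 88 members (0.914%), beside a background of 1.33% over all 16200 autosomal bins that could be compared. At least 2-fold lower were 66 (0.686%), beside 1.56%. Both shares were below the background of all bins, which the members are part of. Scaled by fragments in members, 122 were higher (1.27%, beside 1.73% of all bins) and 45 lower (0.468%, beside 1.2%). The share past 2-fold fell with the count: at 40 to 59 fragments 3.86% of members and 7.12% of bins beyond 1 kb passed 2-fold in either direction, and at 100 or more 0.227% and 0.842%. Of the 9625, 208 (2.16%) had an interval above 0, beside 2.58% of all compared bins, and 553 (5.75%) one below it, beside 6.49%. Members at a gene's far end passed 2-fold in 6.96% of 273 bins, and members at a start in 1.41% of 7564. Among all members the end-only bins are shallower, with a median of 32 fragments against 64. The 2 kinds were not compared at like counts.

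**Figure D3:**
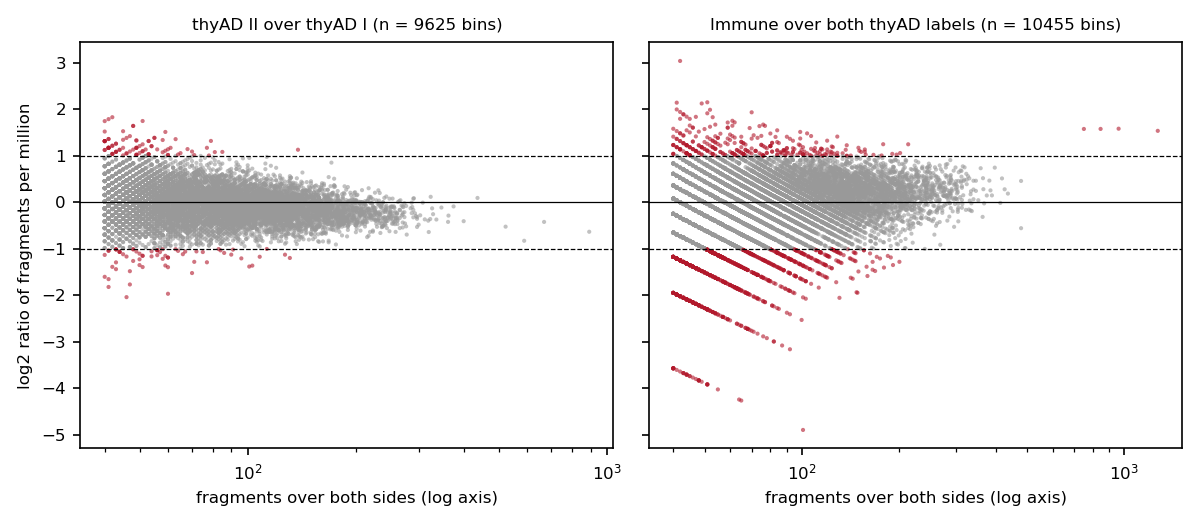
Log2 ratio of FPM against fragments over both sides (log axis), 1 point a member, for thyAD II over thyAD I (9625 bins) and Immune over both thyAD labels (10455 bins). Red points lie at or past 2-fold, marked by dashed lines, most of them at low counts, and the 4 separate points at the far right of the Immune panel are the Rn18s-rs5 bins.

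The 10 bins named as higher in thyAD II were at genes of unlike roles. At the start of Flvcr2, which encodes a choline transporter (chr12:85746001-85747000), there were 9 fragments in thyAD I and 42 in thyAD II (5.46 and 19.2 FPM), and 6 in Immune. The log2 ratio was 1.75 (0.75 to 3.04), and cluster 3 held 1 of the 9. Vgll3, a cofactor of TEAD transcription factors, had 7 and 35 fragments, a log2 ratio of 1.83 (0.72 to 3.33), and 1 fragment in Immune. These 2 bins were low in both thyAD I clusters and high in both thyAD II clusters. Named bins were picked by the label ratio, which sums these clusters, so such a split follows in part from the choice. The shared start of Psmb9, an immunoproteasome subunit, and Tap1, a peptide transporter of the MHC class I pathway (chr17:34187001-34188000), was the deepest of the 10, with 35 and 103 fragments, or 21.3 and 47.0 FPM, at a log2 ratio of 1.13 (0.58 to 1.74). Immune stood at 53.4 FPM there, above both thyAD labels. Dtx3l, a ubiquitin ligase gene known for interferon induction, had 7 fragments in thyAD I, 34 in thyAD II and 14 in Immune, or 4.25, 15.5 and 24.9 FPM. Its higher level in thyAD II came mostly from cluster 0, at 26 of 34. Zfp81 (9 and 39), Dnajb5 (9 and 39), Dzip1 (7 and 33), Ankrd65 (12 and 47), Hs3st3b1 (18 and 61) and the divergent pair Cops2 and Galk2 (14 and 49) completed the 10, at log2 ratios of 1.32 to 1.75.

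The 10 bins named as lower in thyAD II were also mixed, with Elovl6 first. At the start of Elovl6, which elongates palmitate-length fatty acids (chr3:129532001-129533000), thyAD I had 45 fragments and thyAD II 15, or 27.3 and 6.85 FPM, at a log2 ratio of −1.96 (−2.95 to −1.13). Cluster 1 held 34 and cluster 3 11, against 11 and 4 in clusters 0 and 4. The bin was picked by its label ratio, so a split of the clusters by label follows in part from the choice. Aox1, an aldehyde oxidase (chr1:58030001-58031000), had 67 and 34 fragments, or 40.7 and 15.5 FPM, at −1.38 (−2.03 to −0.77). The divergent start of Atg3 and Slc35a5, whose E-box is shown above, had 68 and 35 (41.3 and 16.0 FPM, −1.36, interval −2.0 to −0.76), and Immune resembled thyAD I there at 55.2 FPM. Eno1, a glycolytic enolase, had 29 and 12 fragments at −1.65. BC062258 (83 and 48), Gm46840 (48 and 22) and 3930402G23Rik (28 and 12) are non-coding or little-known loci. The other 3 were bins at far ends: A530013C23Rik (35 and 11), Wiz (34 and 13) and Cpa1 (30 and 11).

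**Figure D4:**
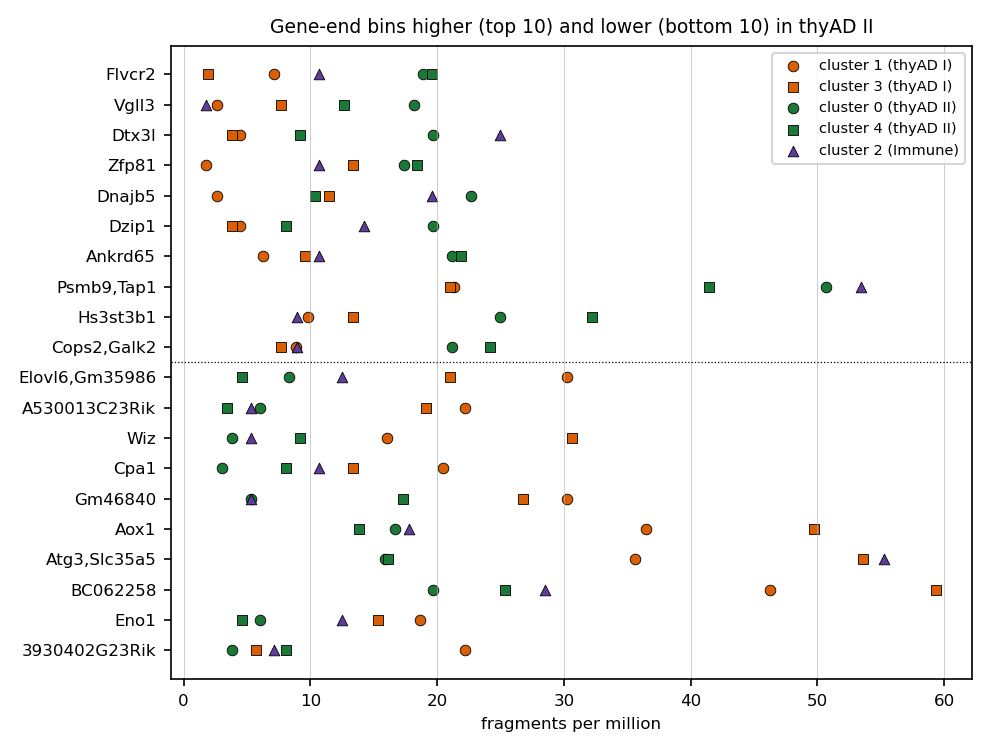
FPM in each cluster at the 10 bins higher in thyAD II (above the dotted line) and the 10 lower (below it). Circles and squares are the 2 clusters of a thyAD label and triangles are Immune, which lies with thyAD II at Psmb9 and Tap1 and with thyAD I at Atg3 and Slc35a5.

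The RNA of these genes came from other animals, a library of 6 pooled thymi of 4-month males, whose labels Ad I (84 nuclei) and Ad II (281) carry no stated link to thyAD I and thyAD II. Ad I had 52203 UMIs in all and Ad II 482027, so UMI counts of the labels are to be compared as CPM. Aox1 had 35 UMIs in Ad I and 2 in Ad II, or 670.5 and 4.15 CPM (UMIs per 1000000 UMIs of the label), lower in the same direction as its start. Dtx3l had 0 and 34 UMIs, or 0 and 70.5 CPM. Elovl6 had 11 and 11, or 210.7 and 22.8 CPM. Psmb9 had 0 and 15 UMIs (0 and 31.1 CPM) and Tap1 1 and 16 (19.2 and 33.2 CPM). At Dtx3l, Psmb9 and Tap1 Ad I holds too few UMIs to compare. Cops2 went against its bin, which was higher in thyAD II, with 7 and 14 UMIs (134.1 and 29.0 CPM). Wiz (0 and 10 UMIs) and Slc35a5 (0 and 8), at bins lower in thyAD II, had UMIs in Ad II only. With 0 UMIs in Ad I they are too few to compare as well. Atg3 was nearly level, at 76.6 and 83.0 CPM. Flvcr2 and Vgll3 had none in either. Of the adipocyte identity genes listed below, Plin1 had 881.2 CPM in Ad I and 8.30 in Ad II, and Acsl1 1973 and 60.2. Fabp4 (2835 and 9510 CPM), Cd36, Pparg and Aqp7 went the other way. The ends of that list were closer in thyAD I and thyAD II, at 1157 and 963.6 FPM over all its gene-end bins. Whether Ad II and thyAD II hold like nuclei was not tested. Among genes with at least 10 UMIs, the median log2 RNA ratio of Ad II over Ad I was 0.14 for 38 genes at members higher in thyAD II, −0.27 for 29 at members lower and −0.08 for 4759 at all compared members. With Ad IIa alone in place of Ad II the first was −0.04, below 0. At 30 or more UMIs the 3 medians were 0.21 (17 genes), −0.15 (14) and 0.18 (2373), so the first hardly differed from all compared members and the last turned to above 0. Across 3860 genes the accessibility ratio at the start and the RNA ratio had a Spearman correlation of 0.08, which is weak and is given as a description: the points share libraries and depth. Level and openness went together more clearly. Median RNA was 0 CPM for 7569 genes with no member at the start, 7.49 at 20 to 49 fragments, 18.7 at 50 to 99 and 31.8 at 100 or more.

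More gene ends passed 2-fold between Immune and the thyAD labels, where the Immune counts are small. By intervals that exclude 0 the gap was smaller, at 11.1% of members beside 7.91% for thyAD II over thyAD I. The same Immune share over all bins was not computed. Among 10455 members compared, 313 (2.99%) were at least 2-fold higher in Immune, beside 2.44% of 18093 bins, and 939 (8.98%) at least 2-fold lower, beside 17.8%. Adding 5 fragments to each side, which raises the ratio of bins with fewer Immune than thyAD fragments, turned this balance round, as given in the last section. Of the 313, 265 also had an interval above 0 (2.53% of the members, beside 2.01%), and of the 939, 503 had one below 0 (4.81%, beside 9.02%): with 31 nuclei, many low bins rest on 0 to 3 Immune fragments. The member median was 0.01 and that of bins beyond 1 kb −0.58. Members at a far end were lower at a median of −0.40, against 0.05 at a start.

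The bin furthest towards Immune was at the start of Itpkb, a kinase gene that T cells need for development, shared with Gm5069 (chr1:180330001-180331000). It held 6 fragments in thyAD I, 13 in thyAD II and 23 in Immune, or 3.64, 5.94 and 41.0 FPM, at a log2 ratio of 3.04 (2.11 to 4.01). Its AT-rich upstream run is shown above. Rasgrp2, an activator of Rap1 in blood cells, had 15, 18 and 18 fragments, or 32.1 FPM in Immune, at 1.92 (0.98 to 2.77). Camk1d, a calcium-dependent kinase gene, had 10, 16 and 15 at 2.0 (0.96 to 2.95). Mboat2, an acyltransferase, had 16, 14 and 19 at 2.13, and Isyna1, the inositol phosphate synthase, 20, 25 and 25 at 1.94. Gm2885, Ubl5 and 4732414G09Rik followed at 1.95 to 2.14. In the 4-month thymic RNA, Itpkb had 7 UMIs in Ad I and 799 in Ad II, or 134.1 and 1658 CPM, and Rasgrp2 3 and 78, or 57.5 and 161.8 CPM. Mboat2 had 0 and 21 UMIs. Camk1d went the other way, with 247 and 1683 UMIs, or 4732 and 3492 CPM, and Ubl5 was nearly level at 38.3 and 39.4 CPM.

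A bin at the ribosomal RNA copy Rn18s-rs5 on chromosome 17 was also higher in Immune, with 335, 333 and 293 fragments (203.4, 152.1 and 521.9 FPM, log2 1.59, interval 1.38 to 1.78). The 4 bins at this locus have the most fragments of all members (750 to 1271), and all 4 were higher in Immune, at 406.1 to 675.1 FPM against 164.6 to 291.5 in thyAD I and 114.6 to 188.2 in thyAD II. Ribosomal DNA exists in many near-identical copies, so reads of other copies can be counted here and the values are uncertain. Without them the member share was 27.3% in thyAD I, 26.2% in thyAD II and 26.7% in Immune. The next deepest members were starts of Zbtb20 (479), Hjurp (479), Hdgfl2 with Ubxn6 (436), Dazap2 (426), Dnpep (418) and Acsl1 (413), the acyl-CoA synthetase gene of adipocytes.

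The bins furthest below in Immune were led by starts with no Immune fragment. At Ropn1l and Gm49208 there were 49 and 52 fragments in the thyAD labels and 0 in Immune. With Immune set to a floor of 3 fragments this is 4.93-fold lower. The interval, which also holds the counting error of the thyAD side, ended at a log2 of −1.98, a smaller difference. Nek8 and Tlcd1 (26 and 39, 3.17-fold at the floor, interval end −1.33) and Pstk (30 and 34, 3.12-fold, −1.30) were alike. So were Bcar3 (28 and 27, 2.68-fold, −1.08) and Gm6936 (22 and 29, 2.49-fold, −0.96). A bin at the end of Plin5, a lipid droplet coat protein gene, had 42, 49 and 1, or 25.5, 22.4 and 1.78 FPM, at a log2 ratio of −3.16 (−9.05 to −1.22). Lama4, a laminin of the basement membrane around adipocytes, had 33, 48 and 1. Bcas1 (40, 46, 1), Hpdl (41, 40, 1) and Smu1 (27, 50, 1) completed the 10.

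Within thyAD I, cluster 1 was compared with cluster 3. Of 3830 members 17 were at least 2-fold higher in cluster 1, beside a background of 0.685%, and 146 lower (3.81%), beside 3.81%. The median member was at −0.29, so the whole set was shifted towards cluster 3, which has the larger gene-end share. Scaled by fragments in members, 43 were higher (1.12%, beside 1.71% of all bins) and 39 lower (1.02%, beside 1.07%). Itpr2, a calcium release channel gene, led those higher in cluster 1, with 43 and 6 fragments at 1.64 (0.50 to 3.26), followed by Gtf2b (37 and 5), Tatdn2 (60 and 12), Zcchc7 (47 and 9) and Atad3a (36 and 6). Bag6, a chaperone gene in the MHC region, led those lower, with 17 and 30 at −1.91 (−2.88 to −1.02), followed by Slc35b1 (21 and 32), Gsk3b (28 and 39), Golga5 (29 and 37) and Amotl2 (27 and 35).

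Within thyAD II, 143 of 5577 members (2.56%) were at least 2-fold higher in cluster 0 than in cluster 4, beside 2.37%, and 15 lower (0.269%), beside 0.439%. The member median was 0.17. Scaled by fragments in members, 67 were higher (1.2%, beside 1.06% of all bins) and 38 lower (0.681%, beside 0.998%). Myl12b, a myosin light chain gene, had 47 and 7 fragments at 2.06 (0.99 to 3.53). Cavin1, which coats the caveolae of the fat cell membrane, had 57 and 13 at 1.48 (0.64 to 2.52), and Prkar2a, a regulatory subunit of protein kinase A, 34 and 6 at 1.80. Wdr18 (42 and 8) and Ptms (50 and 11) were alike. Lower were the far end of Bcl6, a transcriptional repressor (15 and 26 at −1.38, interval −2.42 to −0.43), Hdac10 (17 and 28), Gm35315 (17 and 28), Tmem42 (25 and 35) and the pair Swt1 and Trmt1l (40 and 49 at −0.90).

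The gene lists, which were drawn up with earlier results of these data known, were described by their counts and medians beside all members. Adipocyte identity genes had ends at members in 19 of 20, with 49 bins, beside 52.0% of all protein-coding genes. Cd36 had none. Housekeeping genes were at members in 19 of 19 and ribosomal protein genes in 21 of 22, so this share was not particular to adipocyte genes. In thyAD II over thyAD I, 22 of 32 compared bins lay below 0, with a median of −0.31 beside −0.06 for all members. Of these bins 2 were at least 2-fold higher, beside 0.914% of all members, and 1 lower, beside 0.686%. Pparg, the master regulator of fat cells, was higher in thyAD II at its start, with 9 and 31 fragments (1.32, interval 0.27 to 2.63), and so was the end of Lipe, the hormone-sensitive lipase, with 10 and 37 (1.43, 0.44 to 2.65). Gpd1, which makes glycerol phosphate, was lower, with 32 and 19 (−1.15, −2.06 to −0.30). The start of Cebpa, a transcription factor of fat cell differentiation, had 123 and 114 (−0.52, −0.90 to −0.14), and the perilipin Plin4 95 and 93 (−0.44, −0.87 to −0.01). Slc2a4, the insulin-regulated glucose transporter, had 96 and 72 (−0.82, −1.29 to −0.37). The hormone gene Adipoq had 41 and 51 (−0.10), Plin1 at its start 35 and 46 (−0.02) and Cidec, a droplet fusion protein gene, 49 and 68 (0.06), all with intervals that include 0. A bin at the end of Plin1 was lower, with 32 and 23 (−0.88, −1.73 to −0.07). In Immune 29 of 35 bins were below 0, with a median of −0.71 beside 0.01, and 9 were at least 2-fold lower, beside 8.98% of all members. The median was −0.70 with 10 fragments added in proportion to the totals, and 0.05 with 5 added to each side, a setting that raises the ratio of every bin with fewer Immune than thyAD fragments.

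Thermogenic genes were the list furthest towards thyAD I by median among those with at least 5 compared bins. All 9 compared bins lay below 0, with a median of −0.50. None passed 2-fold, and the single intervals reached 0, such as Prdm16 (24 and 18, −0.82, −1.79 to 0.12), Cox7a1 (23 and 17, −0.84, −1.84 to 0.12) and Cidea (31 and 26, −0.66, −1.47 to 0.13). Over all gene-end bins of the list, without the minimum, thyAD I had 705 fragments and thyAD II 664, or 428.1 and 303.2 FPM, at −0.50 (−0.65 to −0.34). Immune was at 299.3 and the unlabelled barcodes at 217.3.

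Within thyAD I the summed level of this list was 473.2 FPM in cluster 1 and 331.1 in cluster 3, at a log2 of 0.51 (0.27 to 0.77). Adipocyte identity genes stood at 1049 and 1391, at −0.41 (−0.54 to −0.27). That was close to housekeeping genes at −0.43 (−0.57 to −0.28) and immediate early genes at −0.41 (−0.55 to −0.26), so it was not particular to adipocyte genes. Of the 26 lists summed this way 5 were above 0. Besides the thermogenic list, only the T cell list had an interval above 0, at 0.65 (0.03 to 1.36) from 89 and 26 fragments. The others above 0 were also sparse: Schwann (27 and 6 fragments), B cell (58 and 26) and thymic epithelial (55 and 24). Of the 21 thermogenic genes 18 had the higher FPM in cluster 1, and the same count over all genes was not made. Some of the 18 rest on few fragments, such as Pank1 (1 and 0), Letmd1 (3 and 1) and Slc27a2 (5 and 1). Lower in cluster 1 were Zfp516 (6 and 8 fragments, or 5.34 and 15.3 FPM), Ppara (59.6 and 65.1 FPM) and Esrra (77.4 and 78.5 FPM). The 4 thermogenic bins deep enough to compare had a median of 0.01, with 2 above 0 and 2 below, beside −0.29 for all members. The Ucp1 start bin (chr8:83290001-83291000), at the minimum with 20 fragments, held 14 in cluster 1, 1 in cluster 3, 2 in cluster 0, 0 in cluster 4 and 3 in Immune. Dio2, the deiodinase that makes active thyroid hormone, had 17 and 3 in clusters 1 and 3 at one start bin and 13 and 4 at the next, against 5 and 3, and 6 and 1, in clusters 0 and 4. Cidea had 26 and 5, and Kcnk3, a potassium channel gene, 46 and 9 at its deeper bin. The Ucp1 bin and both Dio2 bins would not have reached 20 fragments without cluster 1, so they are members only through the group where they are high, and their counts are a description. Cluster 1 was given 1124353 fragments and cluster 3 522549, so the counts above are read against unequal totals.

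Lipogenic genes had a median of −0.22 in thyAD II over thyAD I over 17 bins, 2 of them at least 2-fold lower, beside 0.686% of all members (Elovl6 and a bin at the end of Pck1, with 39 and 25 fragments). Lipolysis genes were at −0.32 over 17, citric acid cycle genes at −0.30 over 15, fatty acid oxidation genes at −0.08 over 22, triglyceride synthesis genes at −0.06 over 13 (0.00 when scaled by fragments in members) and respiratory chain genes at −0.07 over 15. Housekeeping genes were at −0.16 over 29 and ribosomal protein genes at 0.00 over 22. Among circadian genes (median −0.17 over 15), Nr1d1, a nuclear receptor of the clock, had 97 and 71 (−0.86, −1.32 to −0.40). Of the immediate early genes (−0.13 over 28), Klf4 had 69 and 55 (−0.74), and Junb was higher in Immune, with 40, 48 and 32 fragments (1.33, 0.68 to 1.91). The Hox genes compared (−0.41 over 5) included Hoxa5, with 49, 65 and 7 fragments, lower in Immune at −1.16 (−2.60 to −0.16). Genes for factors that act on the thymus were at −0.08 over 7 bins: Vegfa had 1 start bin at −1.07 (35 and 22) and another at 0.11 (55 and 79), and Ccl25, a chemokine for thymocytes, had 65 and 57 (−0.60). MHC genes were at 0.04 over 8, with Tap1 the highest. Summed over all gene-end bins, without the minimum, 3 of these lists turned to above 0 with intervals that include 0: Hox at 0.04 (−0.14 to 0.23), respiratory chain at 0.04 (−0.11 to 0.18) and thymus-acting factors at 0.03 (−0.15 to 0.22).

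**Figure D5:**
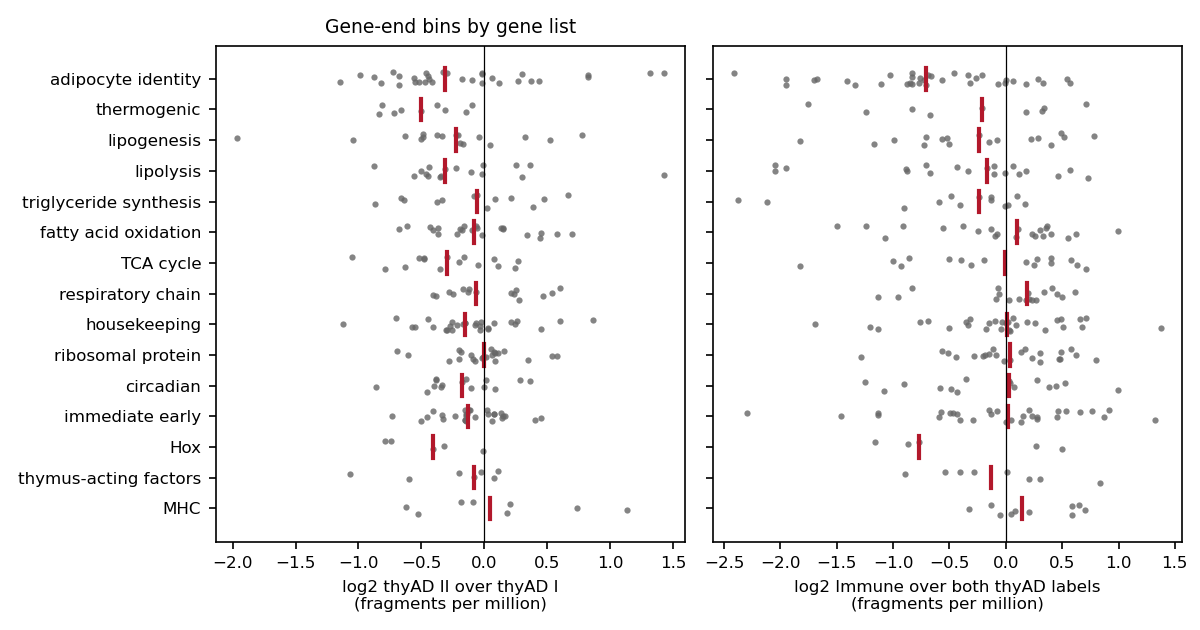
Log2 ratio at each compared gene-end bin of the gene lists with at least 5 such bins (grey points) and its median (red line), for thyAD II over thyAD I and Immune over both thyAD labels. Thermogenic bins all lie left of 0 in the first panel, and most adipocyte identity bins lie left of 0 in the second.

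Markers of other cell types were mostly too low to be members. T cell genes had ends at members in 3 of 20 (Cd8b1, Tcf7 and Satb1), beside 52.0% of all protein-coding genes. The list was therefore also summed over all its gene-end bins. The sum was 69.8 FPM in thyAD I, 65.3 in thyAD II and 381.2 in Immune, at a log2 of 2.50 (2.23 to 2.77), and 619.2 in the unlabelled barcodes. The Cd8b1 bin held 5, 1 and 16 fragments, and Cd3d ends 1, 12 and 24. Adipocyte identity genes ran the other way, at 1157, 963.6 and 728.6 FPM in the labels and 265.1 in the unlabelled barcodes. The Immune nuclei thus carried T cell gene ends together with a level of adipocyte gene ends well above that of the unlabelled barcodes, and mixing of signal between nuclei was not tested. Endothelial genes were at members in 2 of 20 (Notch1 and Nos3), beside the same 52.0%. Summed over all ends they were at 109.3, 127.0 and 135.4 FPM, and the defining Pecam1 and Cdh5 had 0 to 4 fragments in every label. The dendritic cell list was higher in Immune, at 48.6, 49.3 and 87.3 FPM and a log2 of 0.84 (0.35 to 1.29). It rests on 80, 108 and 49 fragments. The start of Irf8, a transcription factor gene of several blood cell types, gave 26, 34 and 23 of them, at 1.41 (0.63 to 2.10). The list was not summed without Irf8. The fibroblast list was lower, at 58.9, 71.2 and 35.6 FPM and −0.86 (−1.62 to −0.23). The B cell, macrophage, mural, thymic epithelial, Schwann, mesothelial and erythroid lists had intervals that include 0 in Immune. Of the 317 labelled barcodes, 6 also occur among the labelled barcodes of the 4-month thymic RNA library.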

How the data were processed

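The ATAC fragments (deposited positions and read-pair counts per barcode) were made by the authors with Cell Ranger ARC 2.0.2 on mm10, per the file headers and the submitters' processing notes, which also name Seurat 5.1.0. Each fragment was counted once, at its midpoint. Per nucleus the authors deposited labels, clusters, UMI counts, the percent of mitochondrial UMIs and the ratio of insertions around gene starts. That table breaks off within row 318 as used here, and its 317 complete rows, all classed as singlets, were used. Doublets were not called again. The 4-month RNA is deposited UMI counts, from cellranger 7.2.0, as the file headers state.

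Fragments were summed per label and cluster with pandas 2.3.3 and divided by all fragments of that group (1646902 in thyAD I, 2189613 in thyAD II, 561387 in Immune). Ratios needed 40 fragments, with 0.5 added to each side. This treats unequal totals alike and raises the ratio wherever the upper group has fewer fragments. Strand came from the RefSeq promoter table, for 25748 of 47042 autosomal genes. Of 352 list genes 348 matched. Intervals were exact Clopper-Pearson (scipy 1.17.1). They were run on counts simulated from the same binomial model without differences between nuclei, which checks the calculation only. The 10 bins named per direction had the interval bound nearest 0 farthest out, 5 for the cluster pairs, and 1 bin higher in Immune is not reported here. List genes named are the highest and lowest of each list, and other genes were named after their values were seen. Members and lists were chosen with earlier results of these data known. The multiome RNA matrix and the epigonadal library were not used here.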

Additional observations from a re-analysis of the deposited data

Results flagged for a closer look

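Barcodes with no label, which belong to no group compared by ratio, had 619.2 FPM (fragments per 1000000 fragments of the group) at all gene-end bins of the 20 T cell genes. This was above the 69.8, 65.3 and 381.2 of thyAD I, thyAD II and Immune. The same barcodes were at 265.1 for adipocyte identity genes. They mix nuclei, debris and any nuclei whose rows are missing from the table used here, and these were not told apart.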

How the results depend on the processing

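The counts past 2-fold depended on the minimum and on the fragments added, and they are given as higher and lower. For thyAD II over thyAD I (88 and 66), they were 1 and 6 with at least 100 fragments over both sides and 570 and 360 with no minimum. They were 22 and 37 with 5 fragments added, 38 and 29 with 10 added in proportion to the totals, 58 and 49 over the 8890 bins with 50 or more pooled fragments, 65 and 43 within 0.5 kb of a gene end and 112 and 117 with equal weight per nucleus. For Immune (313 and 939), the same settings gave 64 and 126, 801 and 2109, 942 and 11 and 160 and 874 in the order of the first 4, and 520 and 1142 with equal weight per nucleus. Adding 5 fragments to both sides raises the ratio of every bin with fewer Immune than thyAD fragments. For cluster 1 over cluster 3 (17 and 146), at least 100 fragments gave 0 and 3, no minimum 1286 and 1450, 5 added 1 and 162, 10 in proportion 7 and 49 and scaling by fragments in members 43 and 39, and for cluster 0 over cluster 4 (143 and 15) 2 and 0, 1034 and 661, 28 and 10, 61 and 3 and 67 and 38. The other settings run for each pair moved these counts by less than 1.5 times, and no nucleus had under 3000 fragments.

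Counted by cut sites, the member shares were 27.2% in thyAD I, 26.05% in thyAD II, 26.81% in Immune, and 26%, 29.79%, 27.09% and 24.47% in clusters 1, 3, 0 and 4. Without Rn18s-rs5 they were 27.27%, 26.74% and 26.06% in thyAD I, Immune and cluster 1. Below 120 bp were 70.8%, 68.5% and 72.0% of member fragments in thyAD I, thyAD II and Immune. With 5 fragments added, the Immune medians were 0.050 (adipocyte identity), 0.22 (thermogenic), 0.25 (lipogenesis), 0.39 (lipolysis), 0.11 (triglyceride synthesis), 0.43 (fatty acid oxidation), 0.32 (TCA cycle), 0.57 (respiratory chain), 0.32 (housekeeping), 0.48 (ribosomal protein), 0.23 (circadian), 0.38 (immediate early), 0.11 (Hox), 0.38 (thymus-acting factors) and 0.71 (MHC). Summed per gene, Hox medians were −0.084 in thyAD II over thyAD I and −0.22 in Immune. The other 133 of 150 list values moved by less than their counting interval. Across the 150, 17 changed sign, some of them among these 133. The settings with added fragments in proportion, equal weight per nucleus, all settings for the cluster pairs, protein-coding genes and Rn18s-rs5 were chosen after seeing the data. No paired analysis was possible because the groups are nuclei of 1 library. Depth limits the Immune and single-cluster values, many of which rest on few fragments.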
